A study of Mus musculus with 6 samples.

Results

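The genes described here are 10 markers of the trunk and ductal epithelium of the mouse pancreas, Bicc1, Muc1, Spp1, Krt7, Cftr, Pkhd1, Pkd2, Tspan8, Dcdc2a and Anxa4. They were taken by gene symbol from a table of 54532 genes, where each symbol matched 1 gene, and all 10 passed the filter on low counts that left 18226 genes for testing. Libraries came from mouse pancreatic buds explanted at E12.5 and cultured for 2 days. The TBZ group (3 libraries) received 0.1 µM tetrabenazine throughout the culture, and the control group (3 libraries) received the vehicle DMSO; the medium of all samples was M199 with 10% fetal bovine serum and 0.1% DMSO. Tetrabenazine inhibits VMAT2, the vesicular monoamine transporter encoded by Slc18a2, and the study asked how that pathway bears on pancreatic development. The labels give no strain, sex or genetic modification and do not say how many buds were pooled or whether replicates came from separate litters, so a p-value here covers only variation among these libraries, which may be technical. The libraries held 35825033 to 40973254 counted reads in the TBZ group and 41005819 to 50620936 in the control group.

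At this stage the pancreatic epithelium separates into tips, which go on to form acinar cells, and a trunk of bipotent cells that line a plexus of future ducts and from which endocrine progenitors leave. Trunk and duct cells are polarised, carry a primary cilium on the surface that faces the lumen, and later secrete bicarbonate-rich fluid. Several genes of this program are known from cystic disease of kidney, liver and pancreas, in which the cilium and the tubule wall are disturbed. The buds had the defining genes of the labelled tissue: Pdx1, the homeobox factor of pancreatic progenitors, averaged 29.1 FPKM in TBZ and 22.1 FPKM in control libraries, and Sox9, which marks progenitor and trunk cells, averaged 29.6 FPKM in TBZ and 25.3 FPKM in control libraries (n = 3 each; FPKM, read fragments scaled to gene length and library depth, as the authors computed it). Epcam, a general epithelial surface protein, averaged 174 FPKM in TBZ and 159 FPKM in control libraries. RNA came from whole buds, so a change in the number of ductal cells and a change in RNA per cell cannot be told apart.

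No member passed the test. With the edgeR quasi-likelihood test on counts, adjusted over all tested genes (changed means an adjusted p under 0.05), 0 of 10 members changed, against a background of 0.187% of all tested genes (34 of 18226, 28 higher and 6 lower in TBZ). The count over all genes was 11 without TBZ replicate 1, 5 without TBZ replicate 3 and 13 without control replicate 2, and that over the members 0 in each case. At an unadjusted p under 0.05 there were 4 members, Bicc1, Muc1, Spp1 and Dcdc2a, all higher in TBZ. Among all 18226 tested genes 925 were higher and 827 lower in TBZ at that threshold. DESeq2 called 2 of the 10, Bicc1 and Muc1, where it called 0.711% of all genes with a p-value (222 of 31240). That total includes low-count genes left out of the 18226, so it is not a like background for the members. The authors' deposited table also has these 2 below an adjusted p of 0.05, where 0.767% of its 28930 genes with an adjusted p are. In edgeR with no filter on low counts the 2 genes and Spp1 were called, where 1.42% of all genes were. Of the 10 members 7 had a log2 fold change (TBZ over control) above 0 and 3 below, with a median of 0.12; over all tested genes 50.1% were above 0 and the median was 0.00.

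The upstream sequences below are shown for Muc1 and Spp1, whose TBZ and control values did not overlap; Bicc1, of which the same holds, had no window. Spp1 had a second window at an internal start, which held none of the motifs searched and is not printed. Each is the 250 bases before the RefSeq transcription start on GRCm38.p6, written 5′ to 3′ on the strand of the gene. They lie at chr3:89228806-89229055 on the plus strand for Muc1 and chr5:104434861-104435110 on the plus strand for Spp1. Capitals mark the TATA box (TATAAA) and the GC box (GGGCGG), searched on both strands.
Muc1: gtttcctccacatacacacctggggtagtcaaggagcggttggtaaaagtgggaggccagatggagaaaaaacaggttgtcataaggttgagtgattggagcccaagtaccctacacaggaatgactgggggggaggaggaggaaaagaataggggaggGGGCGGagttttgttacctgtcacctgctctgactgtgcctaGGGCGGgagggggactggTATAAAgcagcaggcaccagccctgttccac
Spp1: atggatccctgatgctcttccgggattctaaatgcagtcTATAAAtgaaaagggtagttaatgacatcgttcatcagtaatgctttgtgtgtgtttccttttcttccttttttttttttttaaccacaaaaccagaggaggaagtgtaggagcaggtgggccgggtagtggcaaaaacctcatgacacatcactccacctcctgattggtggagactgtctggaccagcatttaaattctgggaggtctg
In all, 9 of the 10 genes had such a window, with 11 windows among them, and the share of windows with a match is given beside that in all 32851 RefSeq windows of this length. TATAAA was in 2 of 11 (12.4% of all), in Muc1 31 bases and in Spp1 211 bases before the start, and GGGCGG in 3 of 11 (32.7% of all). The Cftr window held 6 GC boxes and had a GC content of 76.4%, where the median of all windows was 52.4%. The SOX core ACAAT, the CREB site TGACGTCA and the X-box core GTTGCC had 0 matches in the 11 windows, against 27.7%, 1.55% and 10.4% of all windows. A match describes these letters only.

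In level the 10 genes spanned a wide range. Spp1 was the most abundant, at a mean of 386 FPKM over the 6 libraries, higher than 99.6% of tested genes, and it made up 76.5% to 78.9% of the summed FPKM of the 10 genes in each library. Muc1 (27.5 FPKM), Anxa4 (22.3), Bicc1 (17.8), Pkd2 (16.7) and Krt7 (16.2) came next, followed by Dcdc2a (4.34), Tspan8 (3.25), Pkhd1 (1.19) and Cftr (0.241 FPKM). The ranges over libraries of Muc1 and Anxa4 overlapped, as did those of Bicc1 and Pkd2, of Pkd2 and Krt7, of Dcdc2a and Tspan8, and of Tspan8 and Pkhd1, so that their order is not beyond the spread. Spp1 lay 14-fold above Muc1, Krt7 3.74-fold above Dcdc2a and Pkhd1 4.93-fold above Cftr with no overlap. Cftr, at 30 to 198 reads a library, was above only 10.3% of tested genes.

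**Figure D1:**
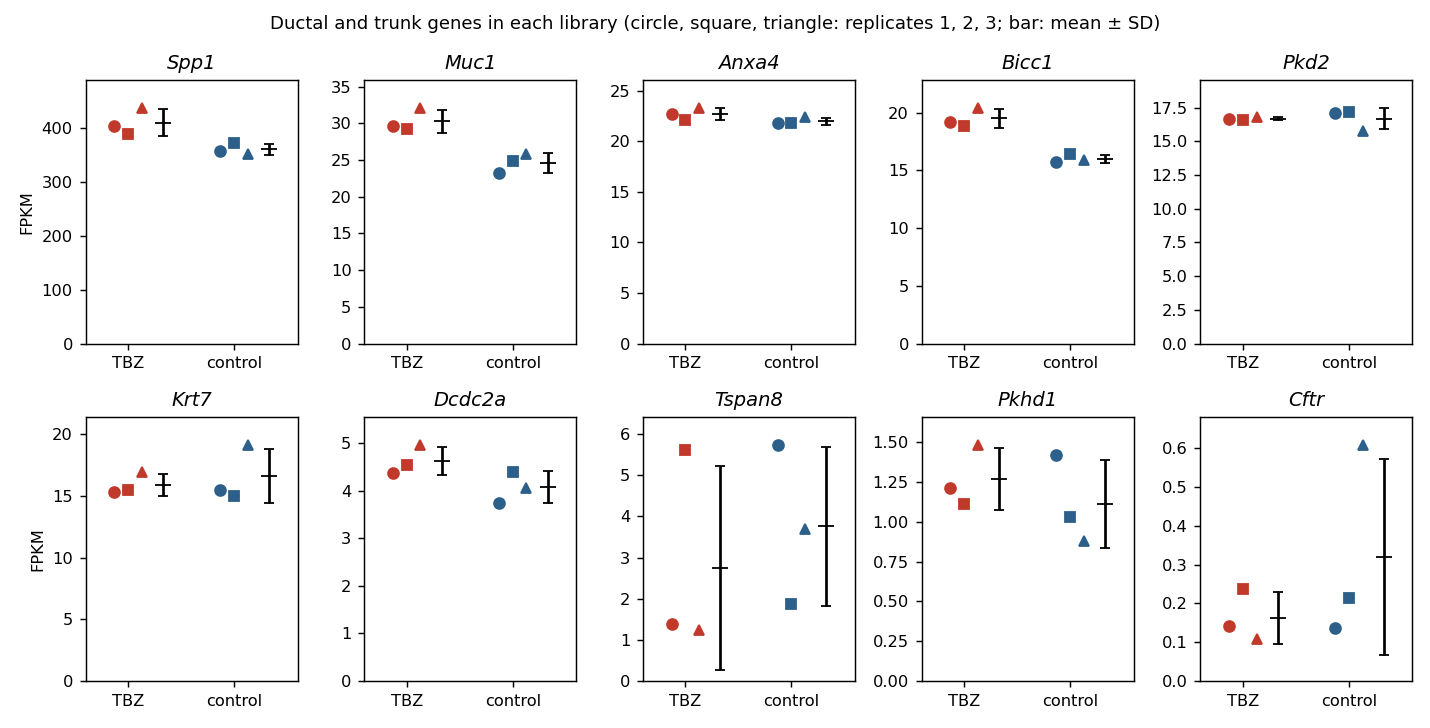
FPKM of each ductal and trunk gene (vertical axes, each starting at 0) in the 3 TBZ and the 3 control libraries; symbols are replicates, and the bar beside them is the mean with SD. Bicc1, Muc1 and Spp1 are higher in all TBZ libraries than in all controls, while Tspan8 and Cftr vary more than 4-fold over the 6 libraries.

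Among luminal and secreted products, Muc1 and Spp1 were both higher in each TBZ library than in each control library. Muc1 encodes the transmembrane mucin of the luminal surface and lies on chromosome 3 from 89229057 to 89233381, plus strand (mm10, as for all gene positions here). It stood at 29.6, 29.2 and 32.1 FPKM in TBZ replicates 1 to 3, against 23.2, 24.9 and 25.8 FPKM in control replicates 1 to 3. All TBZ libraries lay above all controls, by a log2 fold change of 0.30 ± 0.06 (SE; 95% interval 0.17 to 0.43) with an edgeR adjusted p of 0.101; in the authors' deposited table the adjusted p is 0.00325. Spp1 encodes osteopontin, a secreted phosphoprotein made by duct cells and, in other tissues, by macrophages and bone cells; it lies on chromosome 5 from 104435118 to 104441050, plus strand. Its level was 405, 389.8 and 438 FPKM in TBZ replicates 1 to 3, against 358, 372 and 353 FPKM in control replicates 1 to 3. The groups did not overlap, and the log2 fold change was 0.19 ± 0.05 (SE; 95% interval 0.07 to 0.30) with an edgeR adjusted p of 0.248.

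Macrophage markers were detected in the buds, and macrophages are a known source of Spp1 in other tissues. The 11 other macrophage markers summed to 252 to 324 FPKM in TBZ and 271 to 333 FPKM in control libraries, 0 of them were at 0 in all libraries, and their sums overlapped between groups (two-sided exact permutation p = 0.5). The part of these cells in the Spp1 values was not tested. Part of the Spp1 gene is covered on the same strand by the unclassified model Gm42793, which had 14 to 24 reads a library against 24379 or more for Spp1.

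Bicc1 had the smallest p of the 10 genes. It encodes an RNA-binding protein whose loss in mice gives cystic kidneys and dilated pancreatic ducts, and lies on chromosome 10 from 70922832 to 71159700, minus strand. It stood at 19.2, 18.8 and 20.4 FPKM in TBZ replicates 1 to 3, against 15.7, 16.4 and 15.9 FPKM in control replicates 1 to 3. The lowest TBZ library was above the highest control, and the log2 fold change was 0.28 ± 0.05 (SE; 95% interval 0.18 to 0.39), a 1.22-fold difference with an edgeR adjusted p of 0.0558 (44th of 18226 genes by p). DESeq2 gave an adjusted p of 0.000169, as does the authors' deposited table. In the 6 fits that each left out 1 library the log2 fold change stayed between 0.25 and 0.31 and the edgeR adjusted p between 0.0789 and 0.324.

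Of the 10 members, 3 (Bicc1, Muc1 and Spp1) had all TBZ libraries above all controls in scaled counts and 0 had them all below. Among all tested genes 8.47% had the first pattern and 7.03% the second. The first pattern was not particular to the members. It was also found in 9 of 24 general epithelial genes and in 8 of 24 further ductal and trunk genes, and the second in 0 of either list. The 4 antisense, intronic or pseudogene models that overlap the Bicc1 span had at most 4 reads in any library.

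Pkd2, Pkhd1 and Dcdc2a, whose products are found at the cilium, overlapped between the groups. Pkd2 encodes polycystin-2, a cation channel of the cilium and endoplasmic reticulum, and lies on chromosome 5 from 104459450 to 104505819, plus strand, 18399 bases downstream of Spp1. It stood at 16.7, 16.6 and 16.8 FPKM in TBZ replicates 1 to 3, against 17.1, 17.2 and 15.8 FPKM in control replicates 1 to 3. Its log2 fold change was 0.00 ± 0.04 (SE), with a 95% interval of -0.10 to 0.10 (edgeR adjusted p = 0.994), while that of its neighbour Spp1 was 0.19. Pkd1, which encodes the receptor-like partner polycystin-1, averaged 7.13 ± 0.388 FPKM in TBZ and 6.74 ± 1.23 FPKM in control libraries (SD, n = 3 each; log2 0.08 ± 0.11 SE).

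Pkhd1, which encodes fibrocystin, a large membrane protein of the cilium that is altered in recessive polycystic kidney disease, spans chromosome 1 from 20057779 to 20618064, minus strand, with up to 67 exons a transcript. It stood at 1.21, 1.11 and 1.48 FPKM in TBZ replicates 1 to 3, against 1.42, 1.03 and 0.877 FPKM in control replicates 1 to 3. The groups overlapped (log2 0.19 ± 0.17 SE, edgeR adjusted p = 0.765), and the log2 fold change was 0.05 without control replicate 3 and 0.40 without control replicate 1. Dcdc2a, which encodes a doublecortin-domain protein that binds microtubules and localises to cilia, lies on chromosome 13 from 25056004 to 25210706, plus strand. It stood at 4.37, 4.54 and 4.95 FPKM in TBZ replicates 1 to 3, against 3.73, 4.40 and 4.06 FPKM in control replicates 1 to 3. TBZ replicate 1 fell just below control replicate 2, so that the groups overlapped, and the log2 fold change of 0.18 ± 0.07 (SE; 95% interval 0.02 to 0.35) did not pass (edgeR adjusted p = 0.459).

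Anxa4 had the smallest ratio of highest to lowest library among the members. Its product is an annexin, a protein that binds phospholipids in the presence of calcium and sits near the membrane of epithelial cells; the gene lies on chromosome 6 from 86736840 to 86793584, minus strand. It stood at 22.7, 22.1 and 23.3 FPKM in TBZ replicates 1 to 3, against 21.8, 21.8 and 22.4 FPKM in control replicates 1 to 3. The groups overlapped, the highest library was 1.07 times the lowest (1.09 for Pkd2), and the log2 fold change was 0.05 ± 0.04 (SE; 95% interval -0.05 to 0.14).

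Cftr and Tspan8 varied most over the 6 libraries, and Krt7 was highest in a control library. Krt7 encodes keratin 7, an intermediate filament protein of simple epithelia and also of mesothelium, and lies on chromosome 15 from 101411043 to 101430313, plus strand. It stood at 15.3, 15.5 and 16.9 FPKM in TBZ replicates 1 to 3, against 15.5, 15.0 and 19.1 FPKM in control replicates 1 to 3. Control replicate 3 was the highest library, and the log2 fold change of -0.05 ± 0.09 (SE, edgeR adjusted p = 0.881) turned to 0.06 without it. The antisense model Gm671 overlaps the start of Krt7 and had 27 to 61 reads a library, against 4282 or more for Krt7; the strand setting of the counting is not given in the sources used here.

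Cftr encodes the chloride and bicarbonate channel of the duct surface that is altered in cystic fibrosis, and lies on chromosome 6 from 18170687 to 18322768, plus strand. It stood at 0.143, 0.236 and 0.108 FPKM in TBZ replicates 1 to 3, against 0.137, 0.213 and 0.608 FPKM in control replicates 1 to 3. Control replicate 3, with 198 reads, stood above the 30 to 84 reads of the other 5 libraries. The log2 fold change was -0.95 ± 0.52 (SE; 95% interval -2.13 to 0.22) with an edgeR adjusted p of 0.603, and -0.10 without control replicate 3.

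Tspan8 encodes a tetraspanin, a 4-pass membrane protein found in pancreatic, gastric and intestinal epithelium, and lies on chromosome 10 from 115816832 to 115849893, plus strand. It stood at 1.39, 5.61 and 1.23 FPKM in TBZ replicates 1 to 3, against 5.73, 1.86 and 3.70 FPKM in control replicates 1 to 3. TBZ replicate 2 was close to control replicate 1 and the other TBZ libraries were the lowest of the 6. The log2 fold change was -0.44 ± 0.56 (SE; 95% interval -1.72 to 0.83) with an edgeR adjusted p of 0.844. It was -1.51 without TBZ replicate 2, -0.12 without TBZ replicate 1, -0.10 without TBZ replicate 3, 0.00 without control replicate 1 and -0.77 without control replicate 2.

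**Figure D2:**
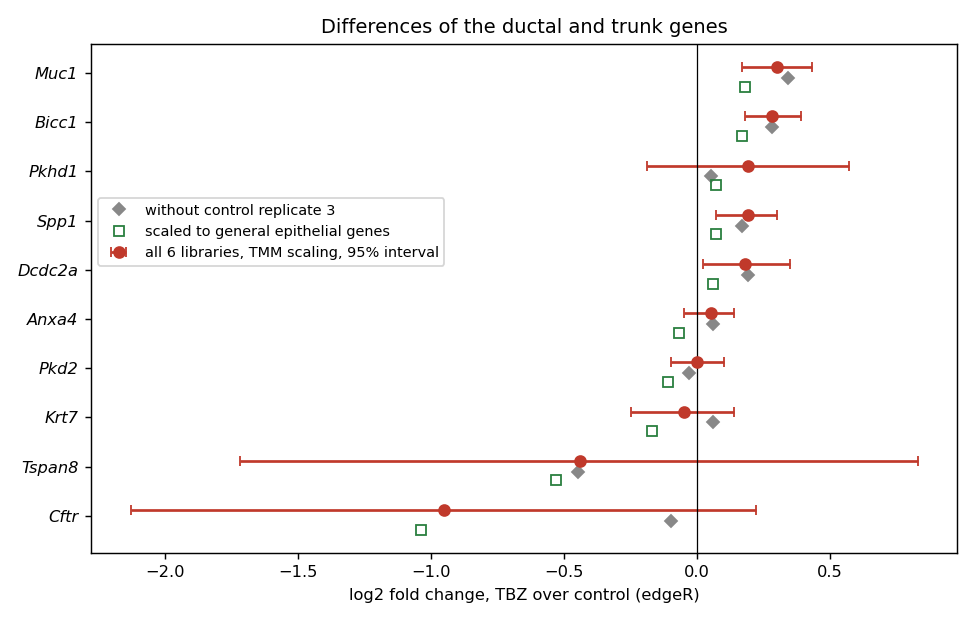
log2 fold change of TBZ over control for each gene (horizontal axis), with 95% intervals from edgeR on all 6 libraries (filled circles), the value without control replicate 3 (diamonds) and the value with libraries scaled to general epithelial genes (open squares). The intervals of Muc1, Bicc1, Spp1 and Dcdc2a lie above 0, and those of Tspan8 (-1.72 to 0.83) and Cftr (-2.13 to 0.22) are the widest.

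Markers of the stomach, an organ next to the pancreatic bud, and of the oesophagus also varied between libraries of a group. Pgc, the gene of the gastric proenzyme progastricsin, stood at 0.214, 5.52 and 0.201 FPKM in TBZ replicates 1 to 3, against 7.89, 0.553 and 4.30 FPKM in control replicates 1 to 3. The libraries high in Pgc were the libraries high in Tspan8, and Pgc was the protein-coding gene with the most similar pattern to Tspan8 out of 12101 compared (Pearson r = 0.988 of log2 CPM over the 6 libraries, as a description). Every other member had a nearest gene with a higher r (0.990 to 0.997), so a value this high does not set Pgc apart. The foregut transcription factor gene Sox2 stood at 0.397, 0.738 and 0.203 FPKM in TBZ replicates 1 to 3, against 1.14, 1.14 and 6.17 FPKM in control replicates 1 to 3. Pitx1, a homeobox gene best known from the hindlimb, stood at 0.568, 2.72 and 0.483 FPKM in TBZ replicates 1 to 3, against 2.23, 2.52 and 17.9 FPKM in control replicates 1 to 3. Both were highest in control replicate 3, the library that was also highest in Cftr and Krt7, but they were picked from a longer list. Of its 25 genes with reads, 2, 8 and 1 were highest in TBZ replicates 1 to 3, and 5, 0 and 9 in control replicates 1 to 3. Barx1, its most abundant gene, stood at 48.8, 75.5 and 53.0 FPKM in TBZ replicates 1 to 3, against 77.7, 66.8 and 76.1 FPKM in control replicates 1 to 3.

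Over the whole stomach and oesophagus list, 25 of 26 genes had reads and 1, Tff1, was at 0 in all libraries. The summed level was 68.4 to 112 FPKM in TBZ and 91.4 to 144 FPKM in control libraries (two-sided exact permutation p = 0.2). Barx1, which was also listed as a mesenchyme marker, made up most of that sum in each library. Among 20 tested genes of that list, 16 log2 fold changes were below 0 with a median of -0.34, and 0 passed in edgeR (1 higher and 6 lower at an unadjusted p under 0.05; 1, Tff2, higher with DESeq2). A score of the list in each library was the median, over its tested genes, of log2 CPM minus the control mean of the gene. Over the 6 libraries this score had a Pearson r of 0.88 with Tspan8, 0.67 with Cftr, 0.35 with Krt7, -0.86 with Spp1, -0.79 with Bicc1 and -0.71 with Muc1. This is a description that includes the group difference. The part of this tissue in the values of these members was not tested. Mesothelial markers other than Krt7 (11 genes, 0 at 0 in all libraries) summed to 117 to 152 FPKM in TBZ and 138 to 190.3 FPKM in control libraries, again highest in control replicate 3 (exact permutation p = 0.3), and their part in the Krt7 values was not tested. Krt19, a keratin of both ducts and mesothelium, is 1 of these 11 genes, so its values are part of the mesothelial sums. It stood at 22.4, 25.6 and 22.6 FPKM in TBZ replicates 1 to 3, against 25.7, 24.0 and 51.4 FPKM in control replicates 1 to 3.

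**Figure D3:**
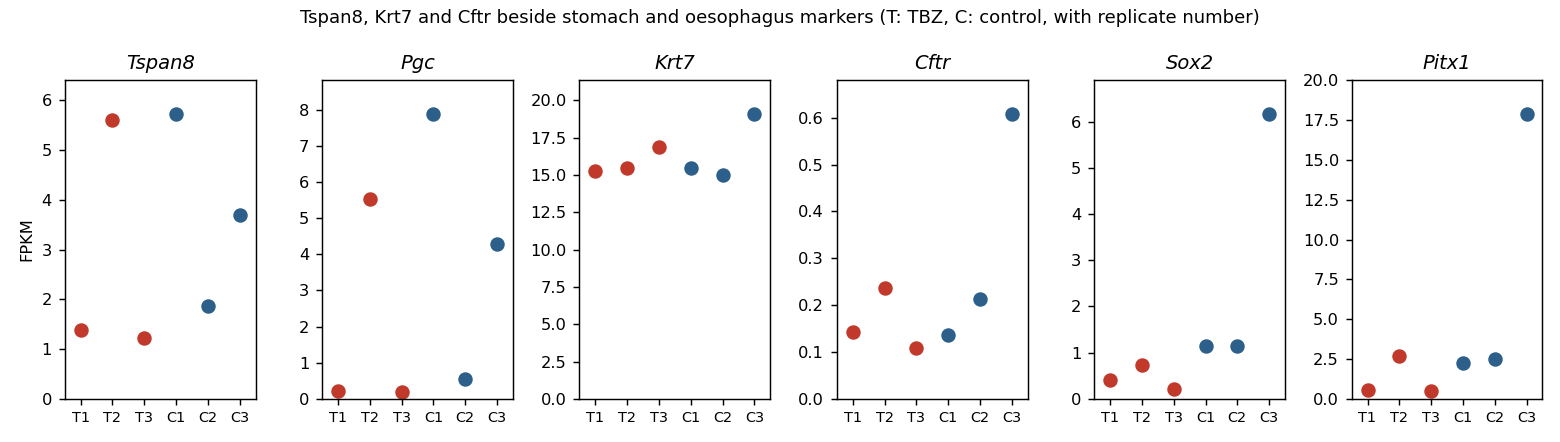
FPKM (vertical axes, each starting at 0) of Tspan8, Krt7 and Cftr beside Pgc, Sox2 and Pitx1 in each library, TBZ replicates (T1 to T3) left of control replicates (C1 to C3). Tspan8 and Pgc are high in T2, C1 and C3, and Cftr, Sox2 and Pitx1 are highest in C3.

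Across the 6 libraries the 10 genes fell into patterns that were more and less alike. Bicc1 and Muc1 had the highest correlation of log2 CPM (Pearson r = 0.97), Bicc1 and Spp1 had 0.96, and Dcdc2a had 0.86 to 0.87 with these 3 genes. Pkhd1 and Cftr ran opposite to each other (r = -0.93), as did Pkd2 and Krt7 (-0.84). These are descriptions over 6 libraries that share the group difference, the scaling and the tissue make-up of each bud sample. By the same measure, each gene outside the 10 that was nearest in pattern was 2010300C02Rik for Bicc1 (r = 0.992), Marveld3 for Muc1 (0.991), Edem2 for Spp1 (0.997), Hdac10 for Krt7 (0.991), Arl2 for Cftr (0.996), Fmn2 for Pkhd1 (0.994), Aard for Pkd2 (0.996), Ccdc126 for Dcdc2a (0.993) and Sytl1 for Anxa4 (0.990). With 12101 genes and 6 libraries, values this high are found for every member.

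**Figure D4:**
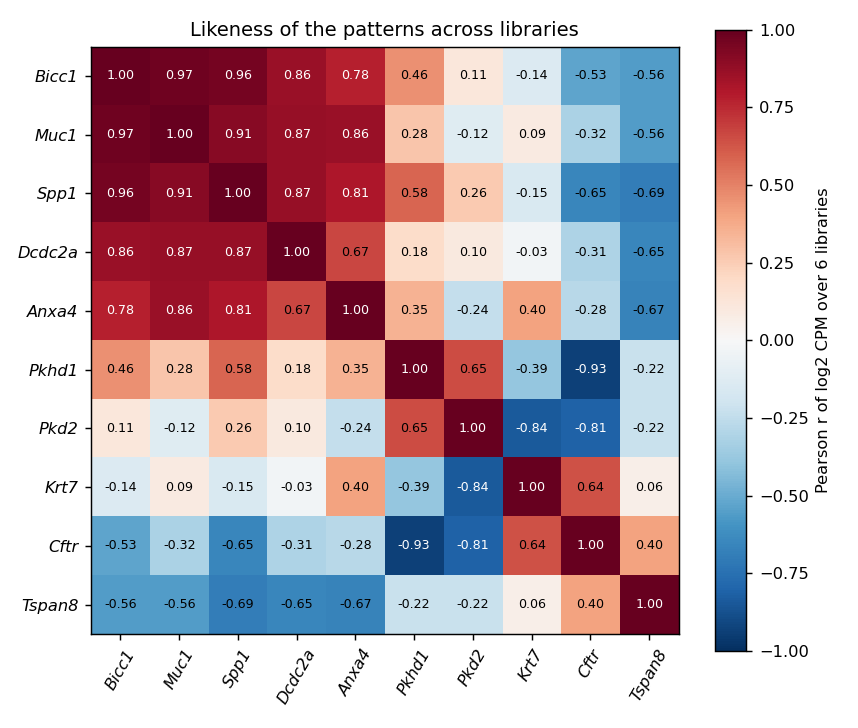
Pearson r of log2 CPM over the 6 libraries between each pair of the 10 genes (colour and number in each cell). Bicc1, Muc1, Spp1, Dcdc2a and Anxa4 have values of 0.67 to 0.97 with each other, and Tspan8 has negative values with these 5.

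General epithelial genes also had log2 fold changes mostly above 0. Of 24 such genes, none of which is a member, 21 were above 0 with a median log2 fold change of 0.13; 0 passed in edgeR, 10 were higher and 0 lower at an unadjusted p under 0.05, and DESeq2 called 2, Cdh1 and Ocln, higher. Their summed level was 1304, 1296 and 1436 FPKM in TBZ replicates 1 to 3, against 1261, 1212 and 1338 FPKM in control replicates 1 to 3, which overlap (exact permutation p = 0.3). Set against that sum, Bicc1 came to 1.48%, 1.45% and 1.42% in TBZ and 1.25%, 1.36% and 1.19% in control replicates 1 to 3, and Muc1 to 2.27%, 2.25% and 2.24% in TBZ and 1.84%, 2.05% and 1.93% in control replicates 1 to 3. Both stayed apart between groups, as 2.5% of all tested genes did with TBZ higher. Krt7 came to 1.17%, 1.20% and 1.18% in TBZ and 1.23%, 1.24% and 1.43% in control replicates 1 to 3, lower without overlap, as were 13.5% of all tested genes on this scale. The remaining 7 members overlapped, among them Spp1 at 30.1% to 31.1% in TBZ and 26.4% to 30.7% in control libraries.

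In an edgeR fit with the libraries scaled to these epithelial counts the median of all tested genes moved to -0.115. The log2 fold changes were then 0.17 for Bicc1 and 0.18 for Muc1 (edgeR adjusted p = 0.357 and 0.310), 0.07 for Spp1, -0.17 for Krt7, -0.11 for Pkd2 and -0.07 for Anxa4, so that Pkd2 and Anxa4 changed sign.

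Of 24 further ductal and trunk genes, 15 were above and 9 below 0, with a median log2 fold change of 0.05. In edgeR 0 changed, 6 were higher and 0 lower at an unadjusted p under 0.05, and DESeq2 called 3 higher, Nkx6-1, Ambp and Ehf. Among the 9 genes below 0 were Sctr (log2 -0.74, at 10 to 30 reads a library), Car2 (-0.36) and Krt19. The log2 fold change of Krt19 was -0.51, and -0.07 without control replicate 3. Nkx6-1, a homeobox factor of trunk progenitors and beta cells, stood at 45.9, 44.4 and 51.4 FPKM in TBZ replicates 1 to 3, against 37.8, 35.1 and 29.9 FPKM in control replicates 1 to 3, without overlap (log2 0.46 ± 0.09 SE, edgeR adjusted p = 0.0943). The most abundant genes of the list were Ambp, which encodes a precursor of alpha-1-microglobulin and bikunin (364 ± 28.2 FPKM in TBZ and 297 ± 23.4 FPKM in control libraries; SD, n = 3 each), Cd24a, a surface glycoprotein gene (log2 0.02), and Clu, the clusterin gene (log2 0.13). The summed level of the list was 934 to 1007 FPKM in TBZ and 841 to 904 FPKM in control libraries (two-sided exact permutation p = 0.1, the smallest that 3 against 3 libraries can give).

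Genes of the primary cilium and of cystic disease other than the members changed little. Of 36 listed genes 34 were tested, 22 were above and 12 below 0, the log2 fold changes ran from -0.25 to 0.28 and the median was 0.02. In edgeR and in DESeq2 0 changed, and 3 were higher and 0 lower at an unadjusted p under 0.05. Without overlap 4 of the 34 were higher and 0 lower in TBZ, against 8.47% and 7.03% of all tested genes. The summed level of the list was 325 FPKM in each TBZ library and 312 to 317 FPKM in control libraries (two-sided exact permutation p = 0.1). Ganab and Prkcsh, the subunits of glucosidase II, had log2 fold changes of 0.02 and 0.00. Ift20, of the intraflagellar transport machinery, stood at 27.0, 26.7 and 26.1 FPKM in TBZ replicates 1 to 3, against 24.3, 23.6 and 22.8 FPKM in control replicates 1 to 3 (log2 0.18 ± 0.05 SE, edgeR adjusted p = 0.236).

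Among genes of anion and fluid transport that act with Cftr, 19 of 20 were tested, with 8 above and 11 below 0 and a median of -0.01. In edgeR 0 changed (2 higher and 1 lower at an unadjusted p under 0.05), and DESeq2 called 1, Kcnq1, a potassium channel gene of secretory epithelia. Kcnq1 stood at 8.39, 8.57 and 9.29 FPKM in TBZ replicates 1 to 3, against 6.89, 6.93 and 6.51 FPKM in control replicates 1 to 3 (log2 0.37 ± 0.06 SE, edgeR adjusted p = 0.0534). Slc9a3r1 and Ezr, whose products tie membrane proteins such as CFTR to the cytoskeleton, had log2 fold changes of -0.01 and -0.06, and the adenylyl cyclase gene Adcy6 had 0.06.

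Relatives of the members in the annexin, mucin, keratin and tetraspanin families were tested next to them. Of the 11 other annexins 4 were above and 7 below 0 with a median of -0.01, and in edgeR and DESeq2 0 changed (2 higher and 0 lower at an unadjusted p under 0.05). Anxa6, Anxa5 and Anxa2 averaged 125, 123 and 90.2 FPKM in TBZ libraries and 127, 127 and 90.7 FPKM in control libraries, so that Anxa4 was not the leading annexin of these buds. Among 20 mucin, keratin and tetraspanin relatives 15 were tested, with 5 above and 10 below 0 and a median of -0.05; in edgeR and DESeq2 0 changed (1 higher and 0 lower at an unadjusted p under 0.05). Cd81, Cd63 and Tspan3 were the most abundant of these, with log2 fold changes of -0.07, -0.05 and -0.01.

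Of 16 acinar genes, which mark the tip lineage, 7 rose and 0 fell in edgeR and 10 rose with DESeq2. The edgeR count was 3 without TBZ replicate 1, 1 without TBZ replicate 3, 4 without control replicate 2, and 6 or 7 without each of the other libraries. All TBZ libraries lay above all controls for 10 of the 16, and the median log2 fold change was 0.57. The summed level of the list was 5985 to 7424 FPKM in TBZ and 3988 to 4872 FPKM in control libraries (two-sided exact permutation p = 0.1). Their part in the values of the ductal and trunk genes, and the difference between the lists, were not tested. Cpa1, a carboxypeptidase gene of tip progenitors and acinar cells, rose to 823 ± 56.8 FPKM in TBZ buds, against 605 ± 39.3 FPKM in control buds (SD, n = 3 each). Its log2 fold change was 0.44 with an edgeR adjusted p of 0.0316, which ran from 0.0366 to 0.234 when 1 library was left out and was 0.169 with epithelial scaling. With that scaling 6 of the 16 acinar genes rose and 0 fell in edgeR. Neurog3, the factor that commits trunk cells to the endocrine lineage, had a log2 fold change of 0.43 ± 0.09 (SE, edgeR adjusted p = 0.124), and DESeq2 called it higher (adjusted p = 0.000333). Pdx1 and Sox9 had log2 fold changes of 0.40 and 0.23 (edgeR adjusted p = 0.249 and 0.237). DESeq2 called Pdx1 higher (adjusted p = 0.0157) but not Sox9 (adjusted p = 0.0588). Slc18a2, the gene of the drug's target, averaged 2.13 FPKM in TBZ and 2.30 FPKM in control libraries (log2 -0.11 ± 0.12 SE).

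**Figure D5:**
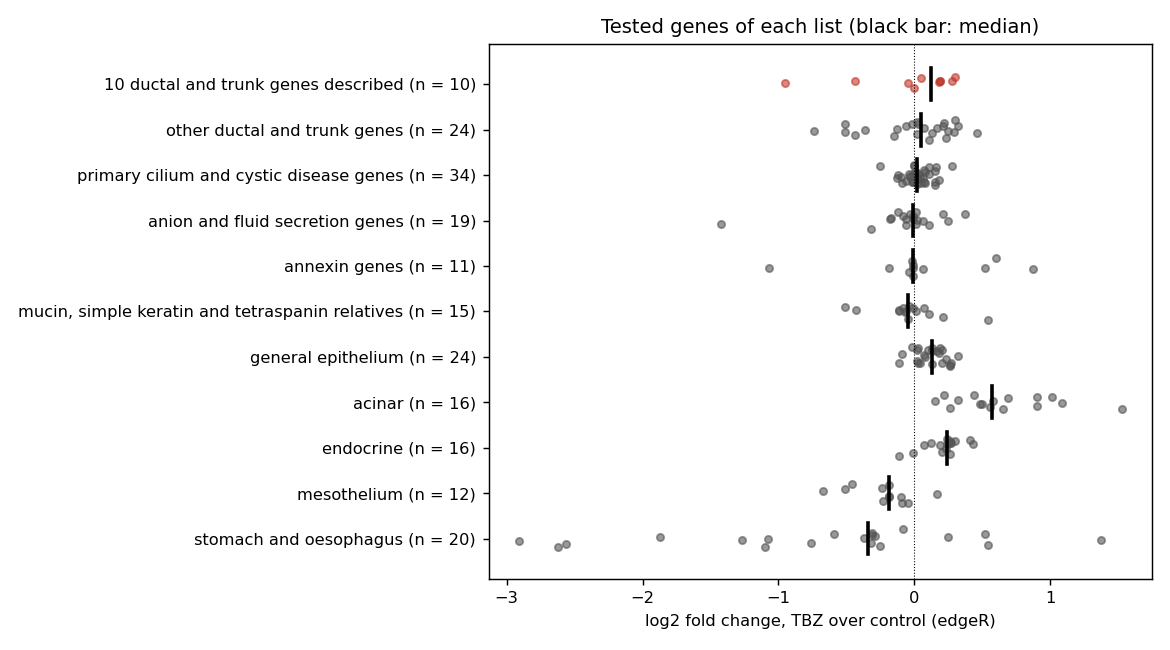
log2 fold change of TBZ over control (edgeR, horizontal axis) for every tested gene of each list, with the 10 members on top and a black bar at the median; the mesothelium list includes Krt7. The medians are 0.12 for the members, 0.13 for general epithelial genes, 0.57 for acinar genes and -0.34 for stomach and oesophagus genes.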

How the data were processed

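RNA-seq libraries of 3 TBZ and 3 control samples were compared. Poly-A RNA was prepared with the NEBNext Ultra kit, per the labels' protocols, and reads were processed with STAR and HTSeq on mm10, per the submitters' processing notes. The deposited table holds whole-number read counts and FPKM values computed by the authors, both per library. It also holds the authors' mean normalized signal in each group, the authors' log2 fold changes and the authors' p-values, with no tool given in the sources used here. Gene positions in it were the same as in GENCODE M21 for all 10 members.

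Counts were tested with edgeR 4.0.16 (R 4.3.3; quasi-likelihood test, TMM scaling, filterByExpr), with Benjamini-Hochberg adjustment over 18226 genes. The SE of a log2 fold change was taken as its size divided by √F from that test. The test was checked on 3 sets of simulated counts. It recovered 56 of 150 genes moved 1.3-fold (37.3%) and 113 of 150 moved 2-fold (75.3%). Of its 439 calls 39 were false. Smaller differences, such as those of Bicc1 (1.22-fold), Muc1 (1.23-fold) and Spp1 (1.14-fold), were not simulated, so a member that did not pass may still differ. CPM are TMM-scaled. Alternatives were DESeq2 1.42.0, limma 3.58.1 on log2(FPKM + 0.5) or log2(FPKM + 0.1), RLE or epithelial scaling, no filter, a replicate block and leaving out each library. Libraries of a group differed by more than sampling noise. The members, lists and tests were chosen with earlier results of these data known. Named are all members, the 3 most abundant genes of each list that is not a cell type marker list, Pkd1, fixed defining genes and the gene nearest in pattern to each member. Sox9, Nkx6-1, Ehf, Ocln, Kcnq1, Krt19, Sctr, Car2, Tff1, Tff2, Sox2, Pitx1, Barx1 and Cdh1 were chosen after their values were seen.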

Additional observations from a re-analysis of the deposited data

How the results depend on the processing

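The count of changed genes over the whole table was 34 (28 higher, 6 lower). It was 222 with DESeq2, 445 with no filter, 13 and 14 with limma on log2(FPKM + 0.5) and log2(FPKM + 0.1), and 5 to 36 when 1 library was left out (11 without TBZ replicate 1, 5 without TBZ replicate 3, 13 without control replicate 2). With epithelial scaling it was 42 (19 higher, 23 lower). The count of members was 0, except for 2 with DESeq2 and 3 with no filter. Other ductal and trunk genes had 3 with DESeq2 and 6 with no filter, anion and fluid genes 1 and 2, and mucin, keratin and tetraspanin relatives 1 with no filter; leaving out 1 library gave 0 for each list. The cause of these differences was not tested. The edgeR fit with a replicate block gave 5 genes over the whole table and 0 members, with Bicc1 at an adjusted p of 0.203. Deviations of same-numbered libraries from their group means had an r of 0.002, -0.153 and -0.077 for numbers 1, 2 and 3. With 3 libraries a group, these values cannot show whether the numbers pair the samples. Signs turned for Krt7 (-0.12 to 0.06 when 1 library was left out, 0.06 without control replicate 3), Anxa4 (-0.07 with epithelial scaling) and Pkd2 (-0.11 with epithelial scaling, 0.00 with no filter, and -0.03 to 0.02 when 1 library was left out), all between -0.05 and 0.05 in the report. Depth limits Cftr most, at 30 to 198 reads a library.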
